A study of Mus musculus with 18 samples.

Results

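The transcripts followed here are 10 genes of the NF-kB response, listed by symbol and each matched to 1 Ensembl row among the 38924 gene rows of the count table: Tnfaip3, Nfkbia, Nfkb1, Nfkb2, Relb, Birc3, Traf1, Icam1, Vcam1 and Tnfaip2. They were measured by RNA-seq in 18 libraries of mouse fibroblasts, 3 in each of 6 groups. Fibroblasts of the heart (HF), kidney (KF) and tail (TF) of 10-week-old male Rosa mT/mG mice on a C57BL/6 background, in which every cell carries a membrane tdTomato reporter until Cre acts, were grown for 10 days. For the transplanted groups (HFs, KFs and TFs) 400000 to 500000 cells on a gelatin foam were placed under the kidney capsule of C57BL/6J recipients aged 10 to 11 weeks, and CD45-;TdTomato+ cells were sorted 3 days later. For the cultured groups (HFc, KFc and TFc) the remaining cells of the same preparations were kept in dishes for a further 3 days, so these groups saw neither surgery nor the sort. No gene was deleted in any group, and no drug was given as a treatment under study. The recipients did receive tribromoethanol as an anesthetic, bupivacaine at the wound and an injection of buprenorphine. The cultured groups met none of these, so their part cannot be told apart from that of transplantation. The sort selects for the donor reporter and against leukocytes, and it does not select for fibroblasts. The labels do not say which libraries came from separate animals or cultures, so the p-values measure the spread between these libraries.

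NF-kB is a family of paired transcription factors that wait in the cytoplasm bound to IkB proteins. Receptors for TNF, IL-1 and microbial products activate the IKK kinase, IkB is degraded, and RelA-p50 dimers enter the nucleus, whereas a slower, non-canonical branch processes p100 (Nfkb2) and releases RelB-p52. Among the genes that the dimers switch on are their own brakes (Nfkbia, Tnfaip3), their own subunits (Nfkb1, Nfkb2, Relb), survival factors of the receptor complexes (Birc3, Traf1) and adhesion molecules through which stromal and endothelial cells hold leukocytes (Icam1, Vcam1).

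Library totals lay between 17927838 and 32245168 counts, and levels are given as CPM, counts scaled to a common library size with edgeR's TMM factors. One library stood apart from its label: KFs replicate 3 held 1487 CPM of Xist, against at most 0.404 in the 17 other libraries, and 0.719 CPM of 4 Y-linked genes summed, against 175 to 230 in the others, although the donors are labelled as male. The summed level of 8 fibroblast markers was 17786 CPM in this library and 92887 and 69096 CPM in KFs replicates 1 and 2, and Dcn, the proteoglycan decorin, stood at 42.6, 527 and 394 CPM. For the 10 genes, kidney changes on transplantation are therefore given with and without KFs replicate 3, as are the pathway changes quoted for named genes in kidney. Comparisons of KFs with other organs are given with the calls that this library changes. Among the cultured groups the fibroblast marker sum ran from 12275 to 16002 CPM. It was 73093 to 122958 CPM in HFs and 30809 to 37381 CPM in TFs. Most of the sum came from 3 collagen genes. Col1a1, Col1a2 and Col3a1 stood at 45875, 25263 and 49278 of the 122958 CPM in HFs replicate 1. The sum therefore follows collagen transcripts more than the number of fibroblasts. Pdgfrb, also in the sum, overlapped between TFc (289 to 298 CPM) and TFs (269 to 308 CPM) and was higher in HFs (445 to 519 CPM) than in HFc (373 to 402 CPM). Thy1, which is in the sum and encodes CD90, was instead lower in HFs (24.9 to 44.5 CPM) than in HFc (123 to 130 CPM). It was also lower in TFs (123 to 195 CPM) than in TFc (232 to 247 CPM). Pdgfra, a receptor typical of fibroblasts, was present in all 18 libraries at 77.6 CPM or more. Of 8 lymphocyte markers no library held more than 1.86 CPM in sum.

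The start-site regions of these genes are shown because kB sites, the DNA elements bound by NF-kB, define what the family has in common. RefSeq promoters on GRCm38.p6 were given for 7 of the 10 genes (Tnfaip3, Nfkbia, Nfkb2, Birc3, Traf1, Icam1 and Tnfaip2), Tnfaip3 with 2 starts and Nfkb2 with 3. In the 250 bases before each start, both strands were searched for the kB consensus and for the looser letters GGNNNTTCC, whose matches can overlap. At least 1 match to the consensus was found for 3 of 7 genes (Tnfaip3, Nfkbia and Nfkb2), or 5 of 10 promoters, against 3.90% of all 32841 promoters. The looser letters were found for 5 of 7 genes, or 8 of 10 promoters, against 15.7% of all promoters. Birc3 and Traf1 held neither in this window. For each gene the start with the most matches is shown. The stretches run 5′ to 3′ on the strand of the gene, with every match in capitals, and they end at or before the start site. They are Tnfaip3 (chr10:19015411-19015560, minus strand), Nfkbia (chr12:55492648-55492883, minus strand), Nfkb2 (chr19:46304673-46304736, plus strand), Icam1 (chr9:21015762-21015889, plus strand) and Tnfaip2 (chr12:111442549-111442607, plus strand).
Tnfaip3: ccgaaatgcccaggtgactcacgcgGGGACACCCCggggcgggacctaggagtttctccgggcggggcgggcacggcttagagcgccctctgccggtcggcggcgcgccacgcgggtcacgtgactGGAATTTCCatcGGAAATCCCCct
Nfkbia: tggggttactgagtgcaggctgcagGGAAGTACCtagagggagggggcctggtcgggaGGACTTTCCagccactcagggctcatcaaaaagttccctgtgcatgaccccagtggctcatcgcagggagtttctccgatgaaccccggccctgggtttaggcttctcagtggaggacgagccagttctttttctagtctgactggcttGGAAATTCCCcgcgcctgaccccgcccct
Nfkb2: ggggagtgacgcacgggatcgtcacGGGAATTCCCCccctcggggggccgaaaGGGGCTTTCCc
Icam1: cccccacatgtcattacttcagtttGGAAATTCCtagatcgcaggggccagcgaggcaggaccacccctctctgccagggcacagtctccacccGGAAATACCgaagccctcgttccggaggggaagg
Tnfaip2: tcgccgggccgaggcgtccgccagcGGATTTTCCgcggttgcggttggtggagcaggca
In Tnfaip3, matches began 125, 24 and 12 bases before the start, and in Nfkbia 211, 178 and 29 bases before it. The matches in Nfkb2 formed 2 clusters, from 39 and from 11 bases before the start. At the starts not shown, Tnfaip3 had 1 match 89 bases before, and Nfkb2 had matches from 236 and 89 bases before one start and from 225 before the other. Both matches of Icam1, 153 and 84 bases before the start, were to the looser letters, as was the single match of Tnfaip2 at 87 bases. A match describes the letters of the sequence and does not show binding in these cells.

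The first comparison asked how the 10 transcripts differed between transplanted and cultured fibroblasts of each organ. All 10 were detected well enough to be tested, and in each organ every transplanted library lay above every cultured library for each of the 10. How many of all genes were separated in this way was not counted, so no share can be set beside it. A gene was called when its adjusted p (edgeR, quasi-likelihood) was under 0.05 and its log2 fold change was over 1 or under -1. In HFs against HFc, 8 of the 10 were called higher, where 18.3% of the 16577 genes tested were. In KFs against KFc, 5 were called higher, where 14.7% of all genes were, and in TFs against TFc 9 were, where 11.0% were. None of the 10 was called lower in any organ, where 9.33%, 7.99% and 5.53% of all genes were in heart, kidney and tail. By the adjusted p alone, 10, 10 and 9 of the 10 passed, all in the upward direction, where 28.0%, 26.1% and 18.6% of all genes were higher. The median log2 fold change of the 10 genes was 1.46 in heart, 1.02 in kidney and 2.37 in tail, where the median over all genes was 0.05, 0.09 and 0.00. The calls again numbered 8, 5 and 9 when KFs replicate 3 was left out, with a kidney median of 1.01. In kidney Tnfaip2 then took the place of Vcam1 among those called, and 12.9% of all genes were higher and 10.3% lower.

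**Figure D1:**
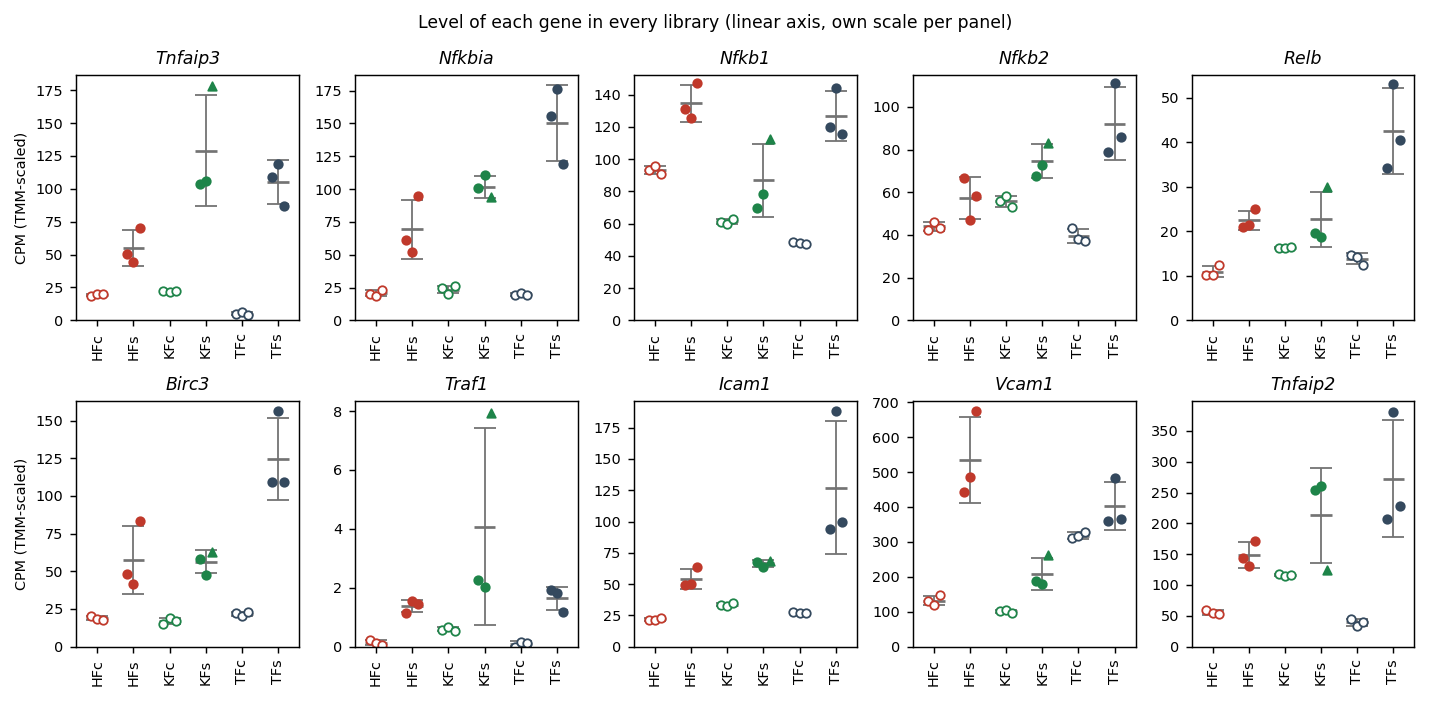
CPM (TMM-scaled, on linear axes that differ between panels) of the 10 genes in each of the 18 libraries, with open symbols for cultured and filled symbols for transplanted cells, horizontal lines and bars for the mean and SD of 3 libraries, and a triangle for KFs replicate 3. In each organ the filled symbols lie above the open ones in every panel, by little for Nfkb2 in heart (47.0 against 46.3 CPM) and Tnfaip2 in kidney (124 against 118 CPM).

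The pair of feedback inhibitors was called higher in all 3 organs. Tnfaip3 encodes A20, a ubiquitin-editing enzyme that shuts off signalling from the TNF and IL-1 receptors. Its level was 18.7, 19.9 and 20.0 CPM in HFc and 50.7, 44.3 and 70.6 CPM in HFs. It was 22.1, 21.6 and 22.6 CPM in KFc and 103, 106 and 178 CPM in KFs. In TFc it was 4.92, 6.20 and 3.99 CPM, the lowest of any group, and in TFs 109, 119 and 86.8 CPM. The log2 fold change was 1.50 ± 0.22 (SE, adjusted p = 2.85e-05) in heart, 2.55 ± 0.22 (adjusted p = 3.19e-07) in kidney and 4.38 ± 0.24 (adjusted p = 1.11e-08) in tail, the last of which was a ratio of mean CPM of 20.9. The kidney value was 2.202 ± 0.169 without KFs replicate 3, its highest library. By group mean the order was KFs, TFs, HFs, KFc, HFc and TFc, and of these neighbours only KFs and TFs overlapped. The log2 difference between KFs and TFs was -0.004 ± 0.17 without KFs replicate 3.

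Nfkbia encodes IkB-alpha, the inhibitor that is rebuilt after each round of activation and carries NF-kB back out of the nucleus. Its cultured levels were alike across organs, at 20.1, 18.5 and 23.3 CPM in HFc, 24.3, 20.2 and 25.9 CPM in KFc and 19.0, 20.8 and 19.2 CPM in TFc. They were 61.3, 52.2 and 94.8 CPM in HFs, 101, 111 and 93.9 CPM in KFs and 156, 176 and 119 CPM in TFs. The groups of each organ were far apart, and the 3 cultured groups overlapped one another. Nfkbia rose by 1.75 ± 0.19 on the log2 scale in heart (adjusted p = 2.12e-06), 2.12 ± 0.19 in kidney (adjusted p = 5.39e-07) and 2.93 ± 0.20 in tail (adjusted p = 6.14e-08). Leaving out KFs replicate 3 gave 2.13 ± 0.20 in kidney. In the order of group means, TFs lay apart from KFs, and KFs overlapped with HFs.

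The 3 subunit genes had smaller log2 fold changes in each organ than Tnfaip3 and Nfkbia. Nfkb1 encodes p105, the precursor of p50. Its levels in HFc were 93.4, 96.0 and 90.7 CPM, above those of KFc (61.3, 60.1 and 62.8 CPM) and TFc (48.3, 47.7 and 47.4 CPM). Transplanted libraries held 131, 125 and 148 CPM in HFs, 69.6, 78.6 and 112 CPM in KFs and 120, 144 and 116 CPM in TFs. The organs were thus separated in culture, whereas HFs and TFs overlapped. Nfkb1 was called in tail alone, with a log2 fold change of 1.41 ± 0.14 (adjusted p = 1.96e-06). In heart and kidney it was 0.53 ± 0.14 (adjusted p = 0.00365) and 0.50 ± 0.14 (adjusted p = 0.00629), under the fold limit, and without KFs replicate 3 the kidney value was 0.23 ± 0.09 (adjusted p = 0.0461).

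Nfkb2 encodes p100, which is both an inhibitor of RelB and the precursor of p52. It lay at 42.5, 46.3 and 43.3 CPM in HFc and at 66.6, 47.0 and 58.2 CPM in HFs, the second of which was close to the cultured libraries. In KFc it was 55.7, 58.3 and 53.1 CPM and in KFs 67.7, 72.9 and 83.1 CPM. In TFc it was 43.2, 37.9 and 37.4 CPM and in TFs 79.0, 111 and 85.8 CPM, overlapping with KFs. The log2 fold change passed the limit in tail, at 1.22 ± 0.14 (adjusted p = 6.24e-06). It was 0.38 ± 0.13 in heart (adjusted p = 0.0253) and 0.42 ± 0.13 in kidney (adjusted p = 0.0162), and the kidney value without KFs replicate 3 was 0.29 ± 0.14 (adjusted p = 0.0880).

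Relb encodes the partner of p52. It was read at 10.3, 10.1 and 12.3 CPM in HFc, 16.2, 16.2 and 16.4 CPM in KFc and 14.7, 14.3 and 12.5 CPM in TFc. After transplantation it was 21.0, 21.5 and 25.01 CPM in HFs, 19.7, 18.6 and 29.9 CPM in KFs and 34.2, 53.1 and 40.4 CPM in TFs. TFs lay above the other groups, whereas KFs and HFs overlapped. Relb rose by 1.62 ± 0.18 in tail on the log2 scale (adjusted p = 6.06e-06). In heart the rise of 1.05 ± 0.18 (adjusted p = 0.000149) was just past the limit, and it was 0.99 both without HFc replicate 2 and with library totals in place of TMM scaling. In kidney the value was 0.48 ± 0.18 (adjusted p = 0.0336), and 0.19 ± 0.15 (adjusted p = 0.311) without KFs replicate 3.

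Birc3 and Traf1 encode cIAP2, a ubiquitin ligase of the TNF receptor complex, and an adaptor that recruits it. Birc3 was found at 20.6, 18.04 and 17.98 CPM in HFc, 15.3, 19.1 and 17.1 CPM in KFc and 22.5, 20.0 and 22.7 CPM in TFc. It stood at 48.0, 41.3 and 83.3 CPM in HFs, 58.4, 47.8 and 62.8 CPM in KFs and 109, 156 and 109 CPM in TFs. HFs and KFs overlapped, and all TFs libraries lay above both. Birc3 rose in all 3 organs, by 1.61 ± 0.22 in heart (adjusted p = 1.61e-05), 1.72 ± 0.22 in kidney (adjusted p = 1.29e-05; 1.59 ± 0.23 without KFs replicate 3) and 2.52 ± 0.22 in tail (adjusted p = 7.08e-07). Of its 75-base transcript windows, 3.45% also occur in other genes, among them its neighbour Birc2, so a small part of these reads could be divided between them. Birc2, looked up for this reason after its values were seen, was called higher in the 3 organs as well, at 2.43, 1.12 and 1.35 on the log2 scale, with 1.02 in kidney without KFs replicate 3 and 0.97, under the limit, without KFs replicate 1.

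Traf1 was scarce, with 6, 4 and 1 counts in HFc, 15, 19 and 16 in KFc and 0, 4 and 3 in TFc. The transplanted libraries held 19, 35 and 38 counts in HFs, 56, 63 and 199 in KFs and 36, 40 and 28 in TFs. KFs replicate 3 alone reached 7.95 CPM, where the other 2 KFs libraries held 2.26 and 2.02 CPM and no other group exceeded 1.93 CPM. The log2 fold changes were 3.26 ± 0.71 in heart (adjusted p = 0.00108), 2.79 ± 0.62 in kidney (adjusted p = 0.00157) and 4.13 ± 0.75 in tail (adjusted p = 0.000506). Without KFs replicate 3 the kidney value was 1.82 ± 0.54 (adjusted p = 0.0104). The tail value was 3.46 without TFc replicate 1 and 4.73 without TFc replicate 2.

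Icam1 and Vcam1, the adhesion genes, differed in which organ showed the larger change. Icam1 encodes the ligand of the leukocyte beta2 integrins. It lay at 20.9, 21.7 and 22.7 CPM in HFc, 33.4, 32.6 and 34.8 CPM in KFc and 27.7, 26.9 and 26.9 CPM in TFc. It was 49.2, 50.1 and 63.4 CPM in HFs, 67.3, 63.7 and 68.5 CPM in KFs and 93.7, 188 and 99.3 CPM in TFs, and each group was separate from its neighbours in the order of means. The rise was 1.32 ± 0.20 on the log2 scale in heart (adjusted p = 3.86e-05) and 2.23 ± 0.20 in tail (adjusted p = 7.56e-07), where TFs replicate 2 was the highest library. In kidney the value of 0.99 ± 0.19 (adjusted p = 0.000585) fell just short of the limit. It was 0.92 ± 0.21 without KFs replicate 3, and passed the limit at 1.04 with library totals in place of TMM scaling and at 1.01 without KFc replicate 3.

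Vcam1 encodes the ligand of the VLA-4 integrin. Its cultured level was highest in tail, at 310, 316 and 328 CPM in TFc against 130, 119 and 146 CPM in HFc and 103, 105 and 97.0 CPM in KFc. In HFs it was 444, 487 and 675 CPM, in KFs 187, 178 and 262 CPM and in TFs 361, 482 and 366 CPM. HFs held the highest group mean for Vcam1 and for Nfkb1 and overlapped with TFs in both. The log2 fold change was 2.02 ± 0.17 in heart (adjusted p = 1.82e-07), 1.05 ± 0.17 in kidney (adjusted p = 0.000114) and 0.34 ± 0.17 in tail (adjusted p = 0.116). The kidney value fell under the fold limit without KFs replicate 3, at 0.81 ± 0.15.

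Tnfaip2, a TNF-induced gene whose protein (M-Sec) takes part in forming membrane nanotubes, was read at 60.2, 54.6 and 52.5 CPM in HFc and 144, 131 and 172 CPM in HFs. KFc held 118, 114 and 116 CPM, more than HFc and TFc, and KFs held 254, 261 and 124 CPM. In TFc the level was 45.2, 34.2 and 39.5 CPM and in TFs 208, 381 and 228 CPM. KFs replicate 3 was the one KFs library close to KFc. The log2 fold change was 1.42 ± 0.25 in heart (adjusted p = 0.000197), 2.78 ± 0.26 in tail (adjusted p = 1.31e-06) and 0.87 ± 0.25 in kidney (adjusted p = 0.00827). Without KFs replicate 3 the kidney value was 1.10 ± 0.19 and passed the limit.

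**Figure D2:**
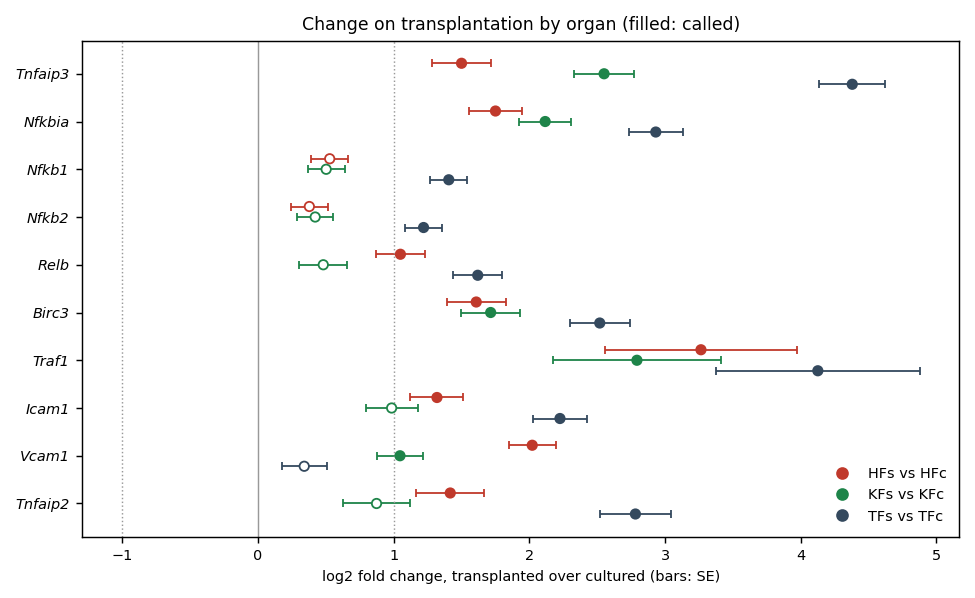
Log2 fold change of each gene between transplanted and cultured cells of heart (red), kidney (green) and tail (dark blue), with SE bars, filled where called and dotted lines at the limits of 1 and -1. Tail values lie farthest right for each gene except Vcam1, where the order is heart (2.02), kidney (1.05) and tail (0.34).

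Levels of different genes were compared as CPM per kb of exon. On this scale Vcam1 led in HFc (14.9 CPM per kb), followed by Nfkbia (12.8) and Tnfaip2 (11.2), and in TFc Vcam1 led at 35.9. In KFc the highest was Tnfaip2 at 23.3. Among the transplanted groups Vcam1 again led in HFs, at 60.3, whereas Nfkbia led in KFs (63.2) and TFs (93.3). Traf1 was the lowest in every group, between 0.0109 CPM per kb in TFc and 0.462 in KFs.

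Cultured fibroblasts were compared between organs to learn where the 10 genes differed before transplantation, with a gene called at an adjusted p under 0.05. In HFc against TFc, 2 were higher (20.9% of all genes were) and 1 was lower (21.0%). Tnfaip3 was higher by 1.95 ± 0.23 and Nfkb1 by 0.97 ± 0.14 on the log2 scale, and Vcam1 was lower, at -1.27 ± 0.17. In KFc against TFc, 5 were higher (17.8%) and 1 was lower (18.5%). The higher ones were Tnfaip3 (2.13 ± 0.23), Traf1 (2.65 ± 0.76), Tnfaip2 (1.55 ± 0.25), Nfkb2 (0.50 ± 0.13) and Nfkb1 (0.36 ± 0.14), and Vcam1 was again lower, at -1.65 ± 0.17. In HFc against KFc, 1 was higher (15.1%), Nfkb1 by 0.60 ± 0.14, and 4 were lower (14.0%). These were Traf1 (-2.03 ± 0.72), Tnfaip2 (-1.06 ± 0.25), Icam1 (-0.63 ± 0.19) and Relb (-0.58 ± 0.18). Nfkbia and Birc3 were called in none of these 3 comparisons. In HFc against TFc the shares of the 10 were thus no higher than those of all genes. Nfkb1 in KFc against TFc and Traf1, Icam1 and Relb in HFc against KFc were each lost when a single library was left out, with 4 to 6 of the 6 libraries compared having this effect. The values in those fits lay at 0.34 to 0.39, -2.53 to -1.70, -0.63 to -0.60 and -0.59 to -0.53. Traf1 in KFc against TFc was 1.98 without TFc replicate 1 and 3.29 without TFc replicate 2. KFs replicate 3 enters these comparisons through the shared fit alone. Without it 5 of the 10 were called in HFc against TFc (48.6% of all genes in either direction), 6 in KFc against TFc (43.8%) and 6 in HFc against KFc (36.3%).

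After transplantation the organs were ordered differently. In HFs against TFs, none of the 10 was higher (10.3% of all genes were) and 7 were lower (12.7%). The log2 difference was -1.23 ± 0.19 for Icam1, -1.11 ± 0.21 for Birc3, -1.11 ± 0.19 for Nfkbia, -0.93 ± 0.21 for Tnfaip3, -0.92 ± 0.18 for Relb, -0.87 ± 0.25 for Tnfaip2 and -0.69 ± 0.13 for Nfkb2. Without KFs replicate 3 in the fit the 7 stayed lower, and Vcam1 was called higher (0.43 ± 0.14, adjusted p = 0.0257), as it was by DESeq2 (0.45) and without HFs replicate 1 (0.57) or TFs replicate 2 (0.56). In KFs against TFs, none was higher (15.3%) and 6 were lower (13.8%), with Birc3 (-1.15 ± 0.21), Vcam1 (-0.94 ± 0.17), Icam1 (-0.93 ± 0.19) and Relb (-0.91 ± 0.18) ahead of Nfkbia (-0.56 ± 0.18) and Nfkb1 (-0.54 ± 0.14). There were again 6 without KFs replicate 3, with Nfkb2 called (adjusted p = 0.0410) and Nfkbia not (adjusted p = 0.0634). Birc3, Vcam1, Icam1, Relb and Nfkb1 were then at -1.23, -1.14, -0.95, -1.15 and -0.77. In HFs against KFs, Vcam1 (1.35 ± 0.17) and Nfkb1 (0.63 ± 0.14) were higher (14.2%) and 3 were lower (19.0%), namely Tnfaip3 (-1.23 ± 0.21), Nfkbia (-0.55 ± 0.18) and Nfkb2 (-0.38 ± 0.13). Without KFs replicate 3, Nfkb2 was not called (-0.28 ± 0.14, adjusted p = 0.119), and Tnfaip2 was called lower (-0.78 ± 0.19, adjusted p = 0.00442). Vcam1, Nfkb1, Tnfaip3 and Nfkbia were then at 1.56, 0.88, -0.91 and -0.59. Without that library 5244, 5944 and 6570 of 16923 genes were called in HFs against TFs, KFs against TFs and HFs against KFs. With all libraries these were 3822, 4819 and 5504 of 16577, in either direction. The calls of Tnfaip2 in HFs against TFs (-1.04 to -0.55 with each library left out), Nfkbia in KFs against TFs (-0.71 to -0.43) and Nfkbia (-0.83 to -0.36) and Nfkb2 (-0.48 to -0.24) in HFs against KFs were lost without any of 3 or 4 libraries. With fits of just the groups compared, 7 of the 10 were called in HFs against TFs (24.9% of all genes), 2 in KFs against TFs (7.47%) and 1 in HFs against KFs (5.75%). In the cultured comparisons such fits called 7 in HFc against TFc, 10 in KFc against TFc and 8 in HFc against KFc, where 62.4%, 58.0% and 51.0% of all genes were called.

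The difference between organs in the change itself was tested as an interaction. The heart change was smaller than the tail change for 7 of the 10 genes (12.7% of all genes were lower) and larger for 1 (10.1% were higher). For Tnfaip3 the heart change was lower than the tail change by a log2 difference of -2.88 ± 0.31 (adjusted p = 1.54e-05), for Tnfaip2 by -1.36 ± 0.35 (adjusted p = 0.0112) and for Nfkbia by -1.18 ± 0.27 (adjusted p = 0.00517). Vcam1 had the opposite sign, at 1.68 ± 0.24 (adjusted p = 0.000156). Relb was called as well when KFs replicate 3 was left out of the fit (-0.53 ± 0.19, adjusted p = 0.0472). In that fit 5461 of 16923 genes were called in either direction, against 3776 of 16577 with all libraries. The kidney change was smaller than the tail change for 6 genes (6.07%) and larger for none (4.99%). The largest were Tnfaip2 at -1.91 ± 0.35 (adjusted p = 0.00292), Tnfaip3 at -1.83 ± 0.31 (adjusted p = 0.00157) and Icam1 at -1.24 ± 0.27 (adjusted p = 0.00820). Both comparisons share the TFs and TFc libraries and are not independent. Without KFs replicate 3, the kidney values were -1.66 ± 0.26, -2.16 ± 0.24 and -1.29 ± 0.29, and Birc3 was called as well (-0.92 ± 0.31), which made 7. The calls over all genes rose too, from 1835 of 16577 with all libraries to 3619 of 16923 in either direction.

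Heart and kidney changes differed for 2 genes. Tnfaip3 changed less in heart (-1.05 ± 0.30, adjusted p = 0.0170; 15.5% of all genes were lower) and Vcam1 more (0.97 ± 0.24, adjusted p = 0.00670; 10.7% were higher). These values without KFs replicate 3 were -0.68 ± 0.23 and 1.23 ± 0.21, and Relb was also called (0.88 ± 0.21). Over all genes 5962 of 16923 were called in that fit, against 4347 of 16577 with all libraries. Tnfaip3 was lost here without HFs replicate 1 or HFs replicate 2, with values of -1.19 to -0.68 over all libraries left out. For Tnfaip3 the tail and heart groups stood at 5.04 ± 1.11 and 19.5 ± 0.74 CPM (SD, n = 3) in culture and at 105 ± 16.6 and 55.2 ± 13.7 CPM after transplantation, so the order of these organs was opposite in the 2 states. For Vcam1 it was opposite as well, from 318 ± 8.95 CPM in TFc and 132 ± 13.8 CPM in HFc to 403 ± 68.3 CPM in TFs and 535 ± 123 CPM in HFs, although TFs and HFs overlapped and their difference was not called with all libraries in edgeR (0.41, adjusted p = 0.0899).

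**Figure D3:**
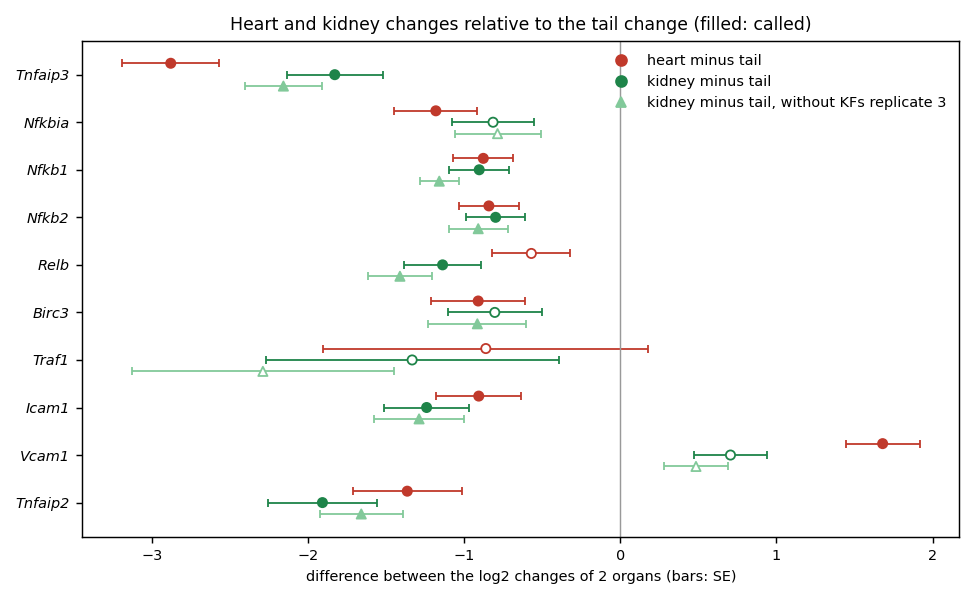
Difference between the log2 change of heart (red) or kidney (green; light triangles without KFs replicate 3) and that of tail for each gene, with SE bars, filled where the adjusted p was under 0.05. All points lie left of 0 except those of Vcam1, which lie right of it in heart (1.68) and are not called in kidney.

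Other genes of the pathway were taken from a list of 69 by role, of which 64 were tested. Called higher and lower were 15 and 4 in heart, 13 and 4 in kidney and 20 and 5 in tail, with median log2 fold changes of 0.24, 0.11 and 0.19 over the tested genes. These are 23.4%, 20.3% and 31.3% higher and 6.25%, 6.25% and 7.81% lower, against 18.3%, 14.7% and 11.0% higher and 9.33%, 7.99% and 5.53% lower over all genes, so the shares in heart and kidney were near those of all genes. The kidney counts were 14 and 6 without KFs replicate 3, with 16 of the 17 genes called before. Of the IkB-family genes other than Nfkbia (Nfkbib, Nfkbie, Nfkbid, Nfkbiz and Bcl3), 4 of 5 were higher in heart, 4 in kidney and 3 in tail. The list groups all 5 as inhibitors, although Bcl3 and Nfkbiz act in the nucleus, and Nfkbib was called in no organ. One of those in kidney, Nfkbid, was not called without KFs replicate 3 (1.47 ± 0.60, adjusted p = 0.0514), nor without KFs replicate 1 (1.46), KFc replicate 1 (1.54) or KFc replicate 3 (1.14), and was 2.22 without KFc replicate 2. Nfkbie, encoding IkB-epsilon, rose by 2.69 ± 0.22, 1.95 ± 0.21 and 3.52 ± 0.22 in heart, kidney and tail. Bcl3, a nuclear cofactor of p50 and p52, rose by 1.51 ± 0.27, 2.29 ± 0.27 and 2.24 ± 0.27. Nfkbiz, another nuclear IkB protein, rose by 1.49 ± 0.21, 2.33 ± 0.21 and 1.98 ± 0.21. Their kidney values without KFs replicate 3 were 1.88, 2.08 and 1.95 in the same order. Among the other negative regulators none of 10 was called in heart or kidney and 2 were higher in tail, and without KFs replicate 3 Cyld was called lower in kidney (-1.06 ± 0.11).

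The remaining subunits, Rela and Rel, were called in no organ, and the heart difference of Rela (-0.70 ± 0.13, adjusted p = 0.000335) stayed within the fold limit. In kidney Rela was at -0.24 with all libraries. It was at -0.53 ± 0.08 (adjusted p = 2.80e-05) without KFs replicate 3, also within the limit. Rela lay at 67.3, 61.0 and 64.0 CPM in HFc and 40.8, 37.6 and 40.2 CPM in HFs, at 60.0, 54.8 and 58.7 CPM in KFc and 39.8, 42.8 and 63.9 CPM in KFs, and at 50.2, 50.0 and 45.6 CPM in TFc and 49.2, 50.1 and 46.3 CPM in TFs. Of the 6 kinase genes, Ikbkg, which encodes the scaffold subunit NEMO of IKK, fell by 1.25 ± 0.13, 1.53 ± 0.13 and 1.63 ± 0.13 in heart, kidney and tail. The kidney value was -1.80 ± 0.09 without KFs replicate 3. Ikbke, encoding the IKK-related kinase IKK-epsilon, was called higher in heart (1.27 ± 0.15) and tail (1.43 ± 0.15), and in kidney was at 0.57 ± 0.15, or 0.50 ± 0.16 without KFs replicate 3, under the fold limit. Of 13 adaptor genes, 1, 1 and 2 were called higher in the 3 organs and none lower.

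Of the 8 ligands 5 were tested. Tnfsf11, encoding RANKL, rose by 6.29 ± 0.76 in heart, 4.25 ± 0.68 in kidney and 2.93 ± 0.60 in tail. Its libraries were uneven, at 5.95, 6.04 and 21.9 CPM in HFs and 6.34, 7.79 and 1.40 CPM in KFs. The heart value was 5.43 without HFs replicate 3 and 7.01 without HFc replicate 2, and the kidney value was 4.65 ± 0.56 without KFs replicate 3. Il1b was at 0 counts in all KFc and TFc libraries, and its mean CPM was at least 64.0-fold higher in KFs and 17.9-fold higher in TFs than the floor of 3 counts per library, or 95.7-fold in kidney without KFs replicate 3. Its counts were uneven within groups, with 166, 420 and 2 in KFs and 4, 25 and 213 in HFs, where the fitted change was 5.31 ± 1.73. The heart call was lost without any 1 of HFs replicate 3 (3.16) and the 3 HFc replicates (4.86 to 6.11), and the tail call without TFs replicate 1 or any 1 of the 3 TFc replicates (adjusted p = 0.0508 to 0.0601). Il1a was called in KFs, at least 14.4-fold higher than the floor (21.0-fold without KFs replicate 3), with 42, 85 and 3 counts. Tnf itself was called in no organ and held at most 2.34 CPM in any library.

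Among 10 receptors, Tnfrsf12a, the TWEAK receptor, fell by 2.54 ± 0.23 in heart, fell by 1.62 ± 0.22 in kidney (-1.79 ± 0.23 without KFs replicate 3) and fell by 2.50 ± 0.23 in tail. Tnfrsf11a, encoding the RANKL receptor RANK, fell by 1.75 ± 0.43 in kidney, or 1.59 ± 0.46 on leaving out KFs replicate 3, and was called higher in heart (1.24 ± 0.43). The heart libraries held 1.27, 0.914 and 0.884 CPM in HFc and 1.74, 1.15 and 4.36 CPM in HFs. That call was lost without HFs replicate 3 (0.53, adjusted p = 0.265), HFc replicate 2 (1.16) or HFc replicate 3 (1.15). Of the 15 other targets 13 were tested, and 4, 4 and 7 were higher and 2, 1 and 3 lower in heart, kidney and tail. Csf1, the growth factor of macrophages, fell from 1902 to 390 CPM in heart, from 2072 to 369 CPM in kidney and from 1934 to 612 CPM in tail (group means), and its kidney log2 fold change was -2.49, or -2.46 without KFs replicate 3. The chemokine gene Cxcl1 was called higher in the 3 organs (4.25, 5.72 and 3.72, with 5.91 in kidney without KFs replicate 3). Ccl2 was called in tail (2.61), and so was Il6 (5.24, and 4.53 without TFc replicate 1). In kidney Il6 was at 1.15 ± 0.47 (adjusted p = 0.0554), and it was called there without KFs replicate 3 (1.29 ± 0.45, adjusted p = 0.0243). The selectins differed: Sele was at least 11.1-fold and 6.21-fold above the floor in KFs and TFs (10.4-fold in KFs without replicate 3), and Selp fell by 2.70 ± 0.46 in tail and rose by 1.43 ± 0.36 in heart.

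**Figure D4:**
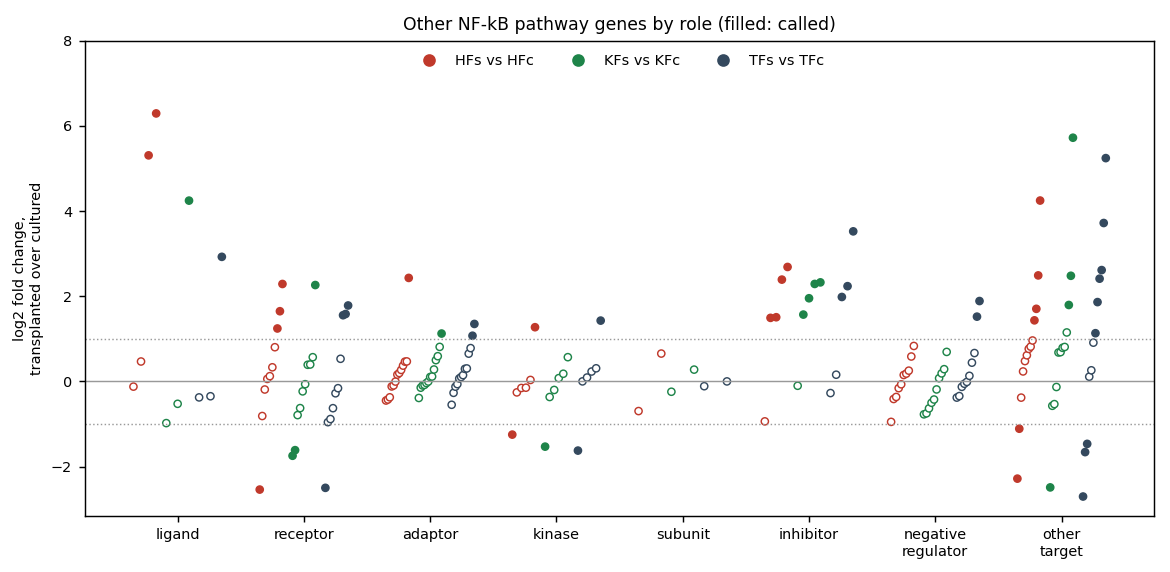
Log2 fold change of the other pathway genes between transplanted and cultured cells, grouped by role, in heart (red), kidney (green) and tail (dark blue), filled where called, with dotted lines at 1 and -1. Tested genes with no library over 3 counts in one of the groups are not drawn (1 in heart, 3 in kidney and 3 in tail), and the inhibitor column is the one in which most points lie above the upper line.

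The summed levels of other cell types' markers moved with some of these results. Endothelial cells also carry Icam1 and Vcam1. Their 10 markers summed to 56.0 to 60.1 CPM in HFc and 95.7 to 110 CPM in HFs, 44.3 to 48.2 CPM in KFc and 48.1 to 65.9 CPM in KFs, and 50.8 to 57.1 CPM in TFc and 64.1 to 68.6 CPM in TFs. Sele and Selp are in both the endothelial and the pathway lists. Cdh5, the defining VE-cadherin gene, did not exceed 3.43 CPM. It was nonetheless higher in HFs (1.45 to 3.43 CPM) than in HFc (0.0364 to 0.338 CPM). Its ranges overlapped in kidney (0.209 to 0.373 CPM in KFc, 0.3596 to 3.15 CPM in KFs). They also overlapped in tail (0.196 to 0.964 CPM in TFc, 0.863 to 1.498 CPM in TFs). Emcn, another of the 10, had no counts in HFc and 20, 40 and 32 in HFs. It had none in TFc and 12, 20 and 13 in TFs, and 6, 9 and 11 in KFc and 44, 23 and 8 in KFs. Tie1 had 0, 1 and 0 counts in HFc and 27, 15 and 8 in HFs. It had 0, 0 and 1 in KFc and 26, 10 and 5 in KFs, and none in TFc and 15, 12 and 8 in TFs. Kdr, Vwf and Sele were also higher in every TFs library than in any TFc library, whereas Tek and Selp were lower. Pecam1, a large part of the sum, was alike in HFc (27.1 to 28.2 CPM) and HFs (24.2 to 29.8 CPM). Macrophage and leukocyte markers summed to 90.8 to 105 CPM in HFc and 92.7 to 169 CPM in HFs, whereas they were lower after transplantation in kidney (436 to 466 CPM in KFc, 39.3 to 159 CPM in KFs) and tail (184 to 216 CPM in TFc, 44.7 to 50.3 CPM in TFs). Ptprc, which encodes the CD45 used in the sort, lay between 0.240 and 11.7 CPM in the transplanted libraries. Proximal tubule markers summed to 23.0 to 25.7 CPM in HFc and to 140, 1167 and 78.9 CPM in HFs, to 19.5 to 21.9 CPM in TFc and 126 to 314 CPM in TFs, and to 103 to 111 CPM in KFc and 58.9 to 121 CPM in KFs. With HFs replicate 2 left out, 8 of the 10 genes were again called higher in heart, where 4290 of all genes were called in either direction. The HFs libraries kept in that fit still held 140 and 78.9 CPM of these markers, so it does not test their part. In bulk RNA a change in the number of cells of one type and a change in RNA per cell cannot be told apart. The part of these cells in the levels of the 10 genes was not tested.

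Across the 18 libraries, each gene was compared with the mean z-score of log2(CPM + 1) over the 10, which includes the gene itself. Pearson's r was between 0.82 and 0.98 for 8 genes, led by Nfkbia (0.976), and was 0.76 for Nfkb1 and 0.58 for Vcam1. The mean z-score lay between -1.01 and -0.57 in cultured libraries and between 0.30 and 1.61 in transplanted ones, with TFs highest. Outside the 10, the transcripts most like this mean were Nfkbie (r = 0.982), Ifnar1 (0.961), Parp9 (0.958), Hivep2 (0.949) and Myom2 (0.949). These values describe 18 libraries that share 6 groups, and no test was made on them.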

How the data were processed

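RNA was sequenced in 18 libraries as stranded, single-end 75-base reads. The authors aligned them with Bowtie2 2.2.0 within RSEM 1.2.12 on GRCm38, with strand-specific counting (the submitters' processing notes name mm9), and deposited expected counts per gene, whole numbers without normalization. The rounding and the annotation release are not given in the sources used here. Symbols came from GENCODE mouse release 21 (37607 of 38924 rows).

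Counts were fitted in R 4.3.3 with edgeR 4.0.16 (filterByExpr, TMM, glmQLFit and glmQLFTest), with 1 mean per group over all 18 libraries and Benjamini-Hochberg adjustment over 16577 genes. Fold limits applied to transplanted against cultured cells alone. CPM are counts scaled to a common library size, the library total times the TMM factor. A group with no library over 3 counts was treated as at the floor, which covers counting error only. In simulated data for HFs against HFc, 190 of 194 changed genes among 15993 were found, with 9 false calls. The raised genes had a median log2 change of 2.02 there, and every gene was given the same spread. Changes near the fold limit and genes with a wider spread were thus not covered.

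The 10 genes, the pathway list and the marker lists were chosen with earlier results of these data known. All 10 are named, with the 2 largest rises and 2 largest falls of the pathway list among those called in each transplant comparison, its subunits, inhibitors and kinases called in all 3, and the 5 transcripts most like the mean of the 10. Rela, Rel, Tnf, Birc2, Il6, Ccl2, Cxcl1, Ikbke, Nfkbib, Nfkbid and Cyld were added after their values were seen. Promoters were from RefSeq (GRCm38.p6). Exons of Nfkb2, Icam1, Vcam1 and Tnfaip2 overlap genes on the opposite strand in 0.688% to 11.7% of their bases. Alternatives were DESeq2 1.42.0, other scalings, filters and thresholds, a replicate block, fits of the compared groups alone, and each replicate left out. Recomputing the other named pathway genes under them was added after seeing the data.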

Additional observations from a re-analysis of the deposited data

Results flagged for a closer look

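The change on transplantation differed between organs, by a test of the difference itself, in 16 cases among the 10 genes. Against tail, the heart difference in log2 change was -2.88 for Tnfaip3, -1.36 for Tnfaip2, -1.18 for Nfkbia, -0.91 for Birc3, -0.91 for Icam1, -0.88 for Nfkb1 and -0.84 for Nfkb2, and 1.68 for Vcam1. Against tail, the kidney difference was -1.91 for Tnfaip2, -1.83 for Tnfaip3, -1.24 for Icam1, -1.14 for Relb, -0.90 for Nfkb1 and -0.80 for Nfkb2. Between heart and kidney it was -1.05 for Tnfaip3 and 0.97 for Vcam1. Of all genes, 12.7% were lower and 10.1% higher for heart against tail, and 6.07% and 4.99% for kidney against tail. Between heart and kidney 15.5% were lower and 10.7% higher, so the shares of the 10 genes were no higher than those of all genes there. The heart value of Birc3 was lost without any 1 of 9 libraries (HFc replicates 1, 2 and 3, HFs replicates 1 and 2, TFc replicates 1, 2 and 3 and TFs replicate 2), and over all 13 libraries left out its values were -1.23 to -0.67. That of Icam1 was lost without HFc replicate 3, HFs replicate 1 or 2 or TFc replicate 2 or 3, and its values over the same 13 were -1.09 to -0.51. Tnfaip3 between heart and kidney was lost without HFs replicate 1 or 2. The causes of these differences were not tested.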

How the results depend on the processing

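For the 10 genes in the 12 comparisons, 2049 values were recomputed over all alternatives. Of these 1854 kept their direction and their side of the threshold, 110 lost the call, 54 gained it, 31 were uncalled in both and changed sign, and 0 reversed from or to a call. DESeq2 ended none of the calls and added 5 of 120. Fits of the compared groups alone ended 8 and added 13. The causes of the changes were not tested.

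With fits of the compared groups alone, 7, 10 and 8 of the 10 genes were called in HFc against TFc, KFc against TFc and HFc against KFc, 2 in KFs against TFs and 1 in HFs against KFs, and over all genes 9158, 8675, 7508, 1137 and 883 in HFc against TFc, KFc against TFc, HFc against KFc, KFs against TFs and HFs against KFs.

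With no fold limit, 10 of the 10 were called in kidney, and over all genes 9353, 8091 and 6433 in heart, kidney and tail. With a limit of 1 on the log2 scale, members called numbered 2 in HFc against KFc, 3 in HFs against TFs, 1 in KFs against TFs and 2 in HFs against KFs, and 4 and 1 for the heart change against the tail and kidney change. Over all genes they numbered 3237, 2703 and 2473 in HFc against TFc, KFc against TFc and HFc against KFc, 1722, 1971 and 2096 in the same pairs of organs after transplantation, and 1876, 980 and 2176 for the differences in change.

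At an adjusted p of 0.01, 2 were called in HFc against KFc, 3 in HFs against KFs, and 5 and 1 for the heart change against the tail and kidney change. Over all genes there were 3849 in KFc against TFc, 3041 in HFc against KFc, 2236, 2801 and 3317 in HFs against TFs, KFs against TFs and HFs against KFs, and 1904, 767 and 2386 for the differences in change.

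With each library left out, 3 to 5 of the 10 were called in HFc against TFc, 2 to 6 in HFc against KFc, 3 to 6 in HFs against KFs and 1 to 3 for heart against kidney change. The calls among all genes ranged widely as well, at 5838 to 8227, 3703 to 6136, 4126 to 6570 and 3249 to 5962 in the same order. Over all genes, KFs against TFs gave 3183 to 5944 and the kidney against tail change 1198 to 3619, the latter without KFs replicate 3.

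Libraries of the same replicate number did not deviate together (correlations of -0.189 to 0.122), so the numbers were not taken as pairs. With the replicate block, 8, 5 and 9 of the 10 were called in heart, kidney and tail, and 4504, 3601 and 2626 among all genes. The block ended 3 single calls, Nfkb1 in KFc against TFc, Traf1 in HFc against KFc and Nfkb2 in HFs against KFs.

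Library totals in place of TMM shifted the median of all genes by -0.16 in HFc against TFc, -0.22 in HFs against TFs, -0.21 in HFs against KFs and -0.11 for heart against kidney change. Under it the median of the 10 in HFc against TFc was -0.04 in place of 0.11. Among uncalled pathway values, Rela in tail (-0.0006) was 0.0355, 0.0052, 0.0333 and 0.0344 with median-of-ratios factors, library totals, the compared groups and DESeq2. With each library left out, Rela lay at -0.061 to 0.0302 there, Tnf at -0.4169 to 0.9397 in heart and -1.5701 to 0.0069 in kidney, and Nfkbid in tail at -0.6714 to 0.0661. Traf1, at 19 counts or fewer in cultured libraries, is the gene most limited by depth.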
